A study of Mus musculus with 8 samples.

Results

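The narrowest H3K79me2 peaks of cultured mouse spermatogonial stem cells are described here, namely the control peaks under 500 bp on chromosomes 1 to 19. They numbered 11738 of 46767 autosomal control peaks, or 25.1% (exact 95% interval 24.7 to 25.5%). A narrow peak was called a satellite when a control peak of 5000 bp or wider, called a domain here, lay within 5000 bp of it. By that rule 2735 narrow peaks were satellites and 9003 were not, and the domains numbered 7905. The peaks were chosen by their width and distance in the control list, so their widths, fold enrichments and distances are given as a description.

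Cells had grown for 7 days in 2 µM EPZ5676, which inhibits DOT1L, or as controls with vehicle, which the protocols name as DMSO and the sample descriptions as EtOH. Each condition had 2 H3K79me2 samples and 2 input samples, 8 in all. Both came from testes of mice 7 days of age and of strain B6.129S7-Gt(ROSA)26Sor/J, whose tissues carry a LacZ reporter, and had been cultured for 2 months on SNL 76/7 feeder cells with 10 ng/mL GDNF and 0.5 ng/mL FGF2. The protocols name no step that took the germ cells away from the feeder cells, which are mouse fibroblasts. There was 1 peak list per condition, 9182 peaks for EPZ5676 and 47774 for the control, which leaves no replicate error and no test of the treatment. Read depth is unknown here.

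DOT1L is the methyltransferase that places methyl groups on lysine 79 of histone H3, and it has been found together with elongation factors that travel with RNA polymerase II. H3K79me2 is known as a mark of transcribed genes, spread over the first part of the gene body downstream of the start and often ending before the gene does. Spermatogonial stem cells renew themselves in response to GDNF from the somatic cells of the testis and give rise to sperm.

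Checked against marker genes, 19 of 25 genes of undifferentiated spermatogonia carried a control peak, against 54.2% of all 20665 autosomal protein-coding genes. Gfra1, the GDNF co-receptor, and Zbtb16, a transcription factor of stem cell maintenance, were among them. Of genes of fibroblast feeder cells 11 of 15 carried a control peak, of testis somatic genes 4 of 15, and of genes of unrelated tissues 2 of 14. The part of feeder cell chromatin in the narrow peaks was not tested.

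Few narrow peaks reached a gene start, and the sequences under those that covered a promoter window show what such a peak can hold. RefSeq (GRCm38.p6) windows ran from 250 bases before to 50 bases after an annotated start. Of the 11738 narrow peaks, 101 overlapped such a window, 44 of them satellites and 57 others, and 12 windows lay wholly inside a narrow peak. The 5 windows printed are examples of both kinds in protein-coding genes, 2 with satellites and 3 with others, read 5′ to 3′ on the minus strand, on which all of these genes lie, with capitals for bases inside the narrow peak.
Hipk1: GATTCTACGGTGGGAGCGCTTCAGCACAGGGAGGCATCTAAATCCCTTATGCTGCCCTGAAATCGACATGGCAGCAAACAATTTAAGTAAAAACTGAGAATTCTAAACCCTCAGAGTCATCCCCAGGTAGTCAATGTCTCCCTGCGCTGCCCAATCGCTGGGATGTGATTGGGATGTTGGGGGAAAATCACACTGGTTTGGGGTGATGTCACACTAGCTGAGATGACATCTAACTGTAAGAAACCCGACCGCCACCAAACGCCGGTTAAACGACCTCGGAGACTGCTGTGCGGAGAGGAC
Slc23a2: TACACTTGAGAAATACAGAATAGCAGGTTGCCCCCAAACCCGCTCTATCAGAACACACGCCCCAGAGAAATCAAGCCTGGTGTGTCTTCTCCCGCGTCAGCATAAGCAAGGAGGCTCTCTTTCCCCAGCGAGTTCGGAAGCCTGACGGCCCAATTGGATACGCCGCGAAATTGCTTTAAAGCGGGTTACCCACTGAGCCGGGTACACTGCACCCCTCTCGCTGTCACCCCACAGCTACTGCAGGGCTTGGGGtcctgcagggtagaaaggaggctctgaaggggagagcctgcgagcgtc
Ncmap: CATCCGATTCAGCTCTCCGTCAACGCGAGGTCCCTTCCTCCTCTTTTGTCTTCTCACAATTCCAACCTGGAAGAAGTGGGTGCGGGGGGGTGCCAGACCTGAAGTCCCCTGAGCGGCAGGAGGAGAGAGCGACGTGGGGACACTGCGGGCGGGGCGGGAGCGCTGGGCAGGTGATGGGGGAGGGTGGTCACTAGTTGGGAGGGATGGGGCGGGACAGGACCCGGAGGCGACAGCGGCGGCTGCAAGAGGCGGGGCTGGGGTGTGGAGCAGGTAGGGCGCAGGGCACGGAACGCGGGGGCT
Dmrtb1: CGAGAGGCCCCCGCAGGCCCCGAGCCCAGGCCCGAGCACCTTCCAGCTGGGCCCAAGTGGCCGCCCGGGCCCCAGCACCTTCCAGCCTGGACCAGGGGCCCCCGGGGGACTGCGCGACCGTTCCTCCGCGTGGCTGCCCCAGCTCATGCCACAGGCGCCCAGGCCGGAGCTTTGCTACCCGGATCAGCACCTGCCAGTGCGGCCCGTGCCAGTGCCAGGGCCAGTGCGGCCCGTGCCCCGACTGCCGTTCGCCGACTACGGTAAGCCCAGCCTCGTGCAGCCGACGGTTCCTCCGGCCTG
Acp5: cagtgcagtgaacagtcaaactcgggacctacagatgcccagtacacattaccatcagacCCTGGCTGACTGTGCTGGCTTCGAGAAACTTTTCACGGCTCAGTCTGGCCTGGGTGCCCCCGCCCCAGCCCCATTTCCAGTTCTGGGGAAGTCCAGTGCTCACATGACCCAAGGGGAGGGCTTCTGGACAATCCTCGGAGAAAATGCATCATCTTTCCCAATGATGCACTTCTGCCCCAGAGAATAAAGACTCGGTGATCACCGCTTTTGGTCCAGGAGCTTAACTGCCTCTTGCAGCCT

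The window of Hipk1, a nuclear protein kinase gene, lies at chr3:103791512-103791811, inside a satellite of 475 bp with a fold enrichment of 2.34 at 1610 bp from its domain. That of Slc23a2, a vitamin C transporter gene, lies at chr2:132145271-132145570 and has 252 bases in a satellite of fold 2.92, 588 bp from its domain. Ncmap, a gene of peripheral myelin, has its window at chr4:135398178-135398477 inside a peak of fold 2.43 that lies 26459 bp from any domain. Dmrtb1 encodes a factor that coordinates the exit of mouse spermatogonia from mitosis. The window printed for it, at chr4:107683540-107683839, lies inside a peak of fold 2.03. That window belongs to an annotated start at 107683589, within the gene span of 107676288 to 107704011 and not at its upstream end. Acp5, the gene of tartrate-resistant acid phosphatase, has 240 bases of its window at chr9:22130549-22130848 in a peak of fold 2.59. None of these 5 peaks overlapped an EPZ5676 peak.

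The 5 windows held 12, 15, 22, 28 and 7 CG dinucleotides, in the order printed, against a median of 7 over all 31365 windows. They are not typical of their classes, since those of other narrow peaks (22, 28 and 7) all lay above their class median. The 49 windows that satellites overlapped had a median of 15 CG dinucleotides, and the 70 that other narrow peaks overlapped had a median of 3. Windows rather than peaks were counted. A narrow peak could overlap several windows, as in Nr6a1os among the others, and windows of long noncoding RNA genes were included. Neither was adjusted for. At least 10 were found in 67.3% of the windows overlapped by satellites, in 22.9% of those overlapped by other narrow peaks and in 43.9% of all windows. The 6-base motif GGGCGG was searched on both strands and lay in 51.0% of the windows overlapped by satellites, in 20% of those overlapped by others and in 36.0% of all. The 5-base motif CCAAT, also on both strands, lay in 28.6% of either kind and in 37.3% of all, and TATAA in 24.5%, 14.3% and 24.9%. These are matches of letters in short windows, with no statement about a factor.

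Satellites and other narrow peaks had nearly the same median width and height. The median width was 329 bp in satellites and 330 bp in the others, with quartiles of 250 and 415 bp over all narrow peaks. The authors' fold enrichment, the height of a peak over background, had a median of 2.16 in satellites and 2.14 in the others, against 3.49 in domains. The median −log10 q was 1.65 in satellites, 1.58 in the others and 7.94 in domains, and a −log10 q of at least 2 was reached by 31.4% of satellites (29.6 to 33.1%) and 25.04% of the others (24.1 to 25.9%). All narrow peaks together covered 3909354 bp, against 162628061 bp under the wider control peaks. The lowest −log10 p in the EPZ5676 list was 4.03, and 89.9% of narrow control peaks lay below it, against 53.3% of wider control peaks and 4.90% of domains. Just inside the width limit, the 322 peaks of 490 to 499 bp had a median fold of 2.13 and 25.2% were satellites. Just outside it, the 320 peaks of 500 to 509 bp had a median fold of 2.14 and 23.8% were satellites.

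By chromosome, narrow peaks made up between 22.4% (chromosome 19) and 28.0% (chromosome 18) of autosomal control peaks. The share of satellites among them ran from 20.1% on chromosome 18 to 30.1% on chromosome 11.

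Most narrow peaks lay away from domains. Satellites were 23.3% of narrow peaks (22.5 to 24.1%), 24.8% of control peaks of 500 to 999 bp and 30.0% of those of 1000 to 4999 bp. Of the 7905 domains, 2228 had a satellite, or 28.2%, with 1 satellite at 1787 domains, 2 at 380 and at least 3 at 61, and 4 at most. The median width was 10036 bp for domains with a satellite and 9970 bp for those without. The gap from a satellite to its domain had a median of 1683 bp and quartiles of 769.5 and 3091.5 bp. The other narrow peaks lay a median of 45400 bp from the nearest domain (quartiles 16428.5 and 131655 bp). No pair of neighbouring control peaks of any width was closer than 489 bp, so satellites begin at that distance. The nearest control peak of any width lay a median of 782 bp from satellites and 1380 bp from the others, and was within 1 kb for 63.8% of satellites and 39.5% of the others.

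**Figure D1:**
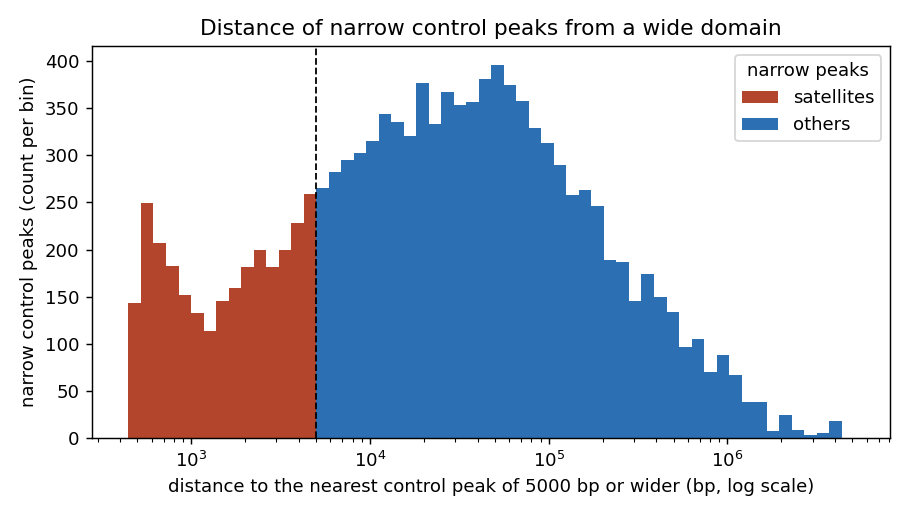
The horizontal axis is the distance in bp (log scale) from each of the 11738 narrow control peaks to the nearest control peak of 5000 bp or wider, and the vertical axis is the number of narrow peaks per bin. Satellites (red, 2735) stand left of the dashed line at 5000 bp and the others (blue, 9003) right of it, with medians of 1683 and 45400 bp.

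Most satellites that could be placed lay in the same gene as their domain, on the side toward the gene end. Of the 2735 satellites, 2054 could be placed against a domain in 1 protein-coding gene with a known start. Of these, 1251 lay inside the gene between the domain and the gene end, or 60.9% (58.8 to 63.0%). Inside the gene on the start side were 368 (17.9%), outside the gene beyond its start were 394, or 19.2% (17.5 to 21.0%), and beyond its end were 41 (2.00%). The remainder had a domain in no gene (56), in several genes (152) or in a gene whose start was not in the table (473). Control peaks near domains that were 500 to 999 bp wide gave 60.3, 20.1, 17.2 and 2.41% for the same places, and those of 1000 to 4999 bp gave 54.1, 24.4, 20.1 and 1.47%. The end side thus held the most at each width, and no test of the difference between widths was made. The length of gene on each side of the domain was not measured.

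**Figure D2:**
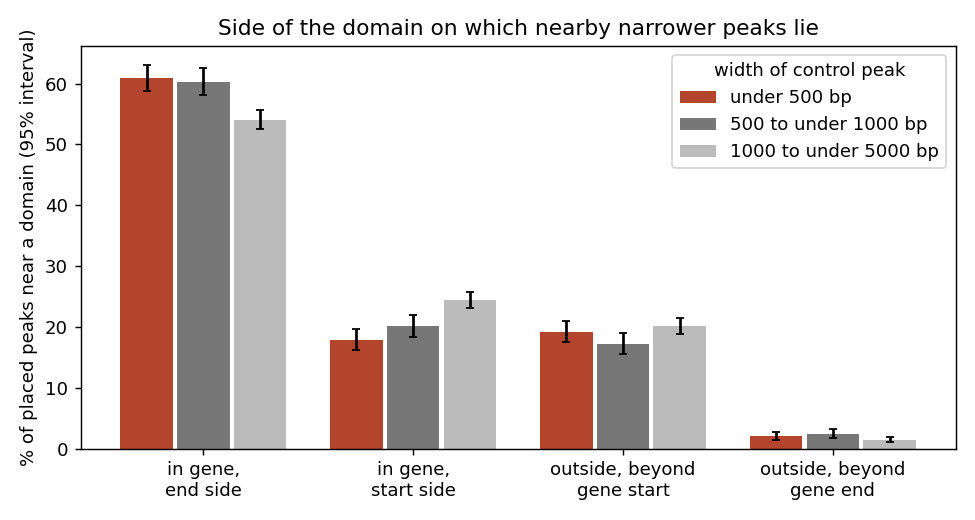
The vertical axis gives the percentage of placed control peaks within 5000 bp of a domain that lay in each of 4 places relative to the domain and its gene, with exact 95% intervals, for peaks under 500 bp (red), of 500 to 999 bp and of 1000 to 4999 bp (greys). Inside the gene on the end side lay 60.9%, 60.3% and 54.1%.

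The 394 satellites beyond the gene start lay a median of 1699.5 bp from that start, 105 of them within 1 kb and 224 within 2 kb. Another protein-coding gene held 53 of them, and 264 lay in no annotated gene of any kind. An EPZ5676 peak overlapped 0 of the 394, near the share over all satellites of 0.183%.

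Gene starts lay nearer to satellites than to the other narrow peaks. A start was within 1 kb of 216 of 2636 satellites on the 18 chromosomes with starts, or 8.19% (7.18 to 9.31%), and of 370 of 8610 others, or 4.30% (3.88 to 4.75%). Among control peaks of 500 to 999 bp it was 9.07% within 5000 bp of a domain and 6.29% elsewhere. The share was 24.5% for control peaks of 1000 to 4999 bp and 56.0% for domains. A start itself was covered by 14 satellites (0.531%) and 37 other narrow peaks (0.430%), against 16.2% of domains. The midpoints within 5 kb of a start fell on different sides. Of 658 such satellites, 455 lay upstream and 203 downstream, so 69.1% were upstream. Of 1427 such others, 488 lay upstream and 939 downstream, so 34.2% were upstream, and of domains 18.4% were. Control peaks of 500 to 999 bp gave like values, 69.0% upstream within 5000 bp of a domain and 31.2% elsewhere. Windows whose start lay within 1 kb of a satellite had a median of 24 CG dinucleotides (281 windows), against 13 near other narrow peaks (450 windows) and 25 near domains (6225 windows). Satellites were chosen by lying within 5000 bp of a domain, and 56.0% of domains had a start within 1 kb. Their nearness to starts, the side and the CG counts are therefore not independent of that rule and are given as a description.

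**Figure D3:**
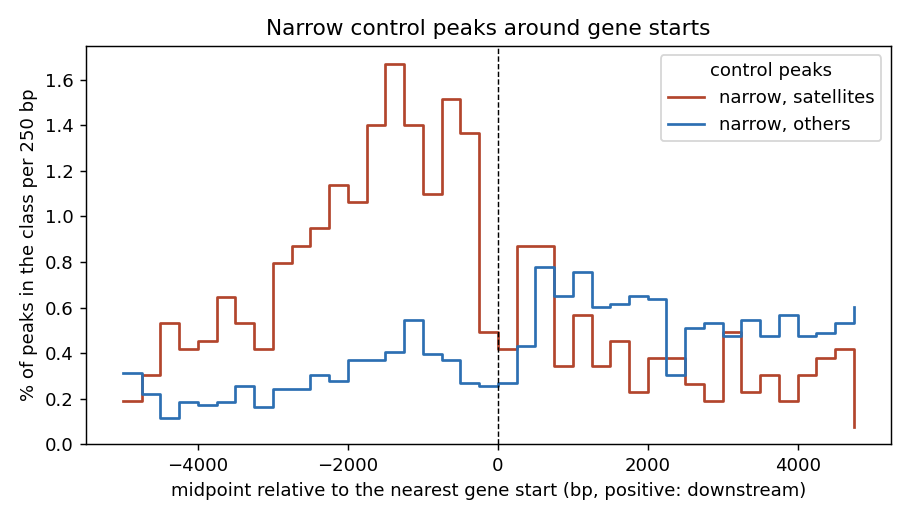
The horizontal axis is the midpoint of a narrow control peak relative to the nearest annotated gene start (bp, negative upstream), and the vertical axis is the percentage of the class in each 250-bp bin. Satellites (red) stand higher before the start, where 455 of 658 within 5 kb lay, and the others (blue) after it, where 939 of 1427 lay.

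Most narrow peaks lay in genes. Protein-coding gene spans held 2229 of 2735 satellites, or 81.5% (80.0 to 82.9%), and 7767 of 9003 others, or 86.3% (85.5 to 87.0%), against 97.7% of domains and 90.7% of all control peaks of 500 bp or wider. A long noncoding RNA gene outside protein-coding genes held 111 satellites (4.06%) and 328 others (3.64%). No annotated gene of any kind held 380 satellites (13.9%) or 834 others (9.26%).

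Along the gene, narrow peaks lay farther from the start than domains did. The median midpoint was at 42.5% of the gene span from start to end in satellites (1771 peaks in 1 gene, quartiles 23.8 and 63.9%) and at 42.4% in the others (5962 peaks, 22.2 and 63.9%). Domains had their median at 24.96% (6151 peaks). Control peaks of 500 to 999 bp had theirs at 39.9% within 5000 bp of a domain and at 40.8% elsewhere. The position was therefore not particular to peaks under 500 bp. Beyond the middle of the span lay 39.9% of satellites, 40.5% of the others and 15.1% of domains. In bp, satellites lay a median of 23139 from the start in genes of a median 67837 bp, and the others 42890.5 from the start in genes of 120329 bp. Satellites and others thus sat at like relative positions in genes of unlike length.

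**Figure D4:**
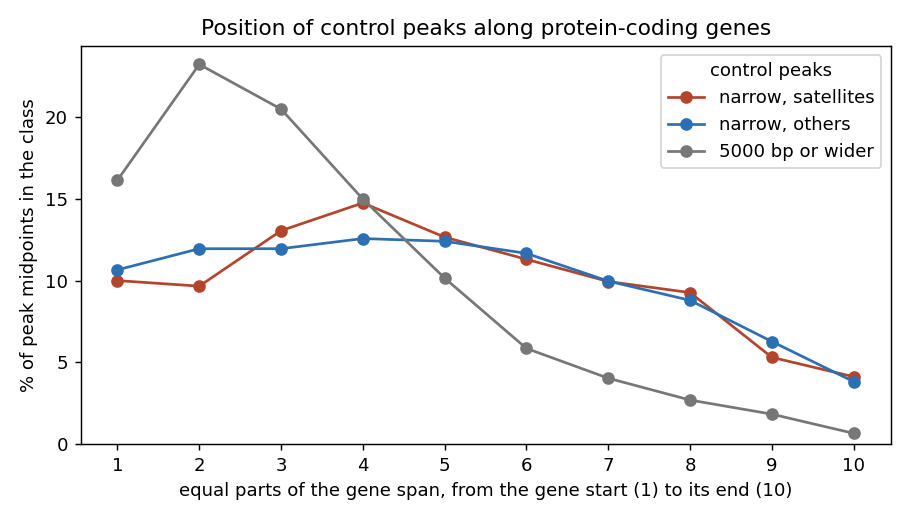
The horizontal axis divides the gene span into 10 equal parts from start (1) to end (10), and the vertical axis is the percentage of peak midpoints of each class in each part. Satellites (red) and other narrow peaks (blue) reach their highest shares in part 4, at 14.7% and 12.6%, whereas domains (grey) lie mostly nearer to the start, with a median position of 24.96%.

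Genes with narrow peaks mostly had wider ones too. Of 20665 autosomal protein-coding genes, 4356 overlapped a narrow peak (21.1%). Of these, 2542 also had a domain, 1405 had a widest peak of 500 to 4999 bp, and 409 had narrow peaks only, the last being 1.98% of all genes. Of the satellites, 2167 lay in a gene with a domain (79.2%), and 506 lay in no protein-coding gene (18.5%). Of the others, 4486 lay in a gene with a domain (49.8%), 2824 in a gene whose widest peak was 500 to 4999 bp (31.4%) and 457 in a narrow-only gene (5.08%).

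The genes with the most narrow peaks were long. Ank3, which encodes ankyrin-G, had 30 among 74 control peaks, of widths 189 to 499 bp and folds 2.00 to 2.75. Efna5, the gene of an ephrin ligand, had 30 among 54, none a satellite, with folds 2.02 to 2.54. Magi1, a scaffold protein gene of cell junctions, had 26 among 92, with midpoints from 43.4 to 93.7% of its span, and a widest peak of 74281 bp. Slit3, a guidance ligand gene, had 26 among 62, from 9.27 to 58.2% of its span. The median fold in these 4 genes ran from 2.14 in Efna5 to 2.23 in Ank3, which is near the median of all narrow peaks. EPZ5676 peaks overlapped 6 of the narrow peaks in Efna5 and none in Ank3, Magi1 or Slit3.

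The 409 narrow-only genes had little of the mark in all. In 326 of them there was 1 narrow peak, in 74 there were 2 and in 9 at least 3, and the covered length had a median of 367 bp. Tmem176b, Tpd52l1 and Fgf18, a fibroblast growth factor gene, had 4 narrow peaks each, and Nmnat2, an enzyme gene of NAD synthesis, and Slc35g2 had 3 each. Tmem176b, Tpd52l1 and Slc35g2 overlap another gene, so their peaks may belong to either. An EPZ5676 peak, anywhere in the gene, was found in 47 of 409 narrow-only genes, or 11.5% (8.57 to 15.0%), against 13.1% of all genes, 31.9% of genes with a domain and 4.96% of genes with no control peak. Gene length differed between these classes, with medians of 21961 bp in narrow-only genes, 38109.5 bp in genes with a domain and 9624.5 bp in genes with no control peak. Among genes under 10 kb, EPZ5676 peaks were in 0 of 121 narrow-only genes, against 6.02% of genes with a domain and 0.955% of genes with no control peak. From 10000 to under 30000 bp they were in 4 of 129 narrow-only genes (3.10%), against 19.6% with a domain and 2.16% with no control peak. From 30000 to under 100000 bp they were in 8 of 84 narrow-only genes (9.52%), against 39.4% and 8.20%. Among genes of at least 100 kb they were in 35 of 75 narrow-only genes (46.7%), against 49.2% of genes with a domain and 32.1% of genes with no control peak.

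Narrow peaks rarely overlapped an EPZ5676 peak. Of 11738 narrow control peaks, 198 did so by at least 1 bp, or 1.69% (1.46 to 1.94%), against 6.62% of all autosomal control peaks. The share was lower in satellites, at 5 of 2735 or 0.183% (0.0594 to 0.426%), than in the others, at 193 of 9003 or 2.14% (1.85 to 2.46%). Domains had 23.9%, but a wide peak offers more room for an overlap. Midpoints, which do not depend on width in that way, lay inside an EPZ5676 peak in 0.110% of satellites, 1.48% of the others and 1.35% of domains, against 1.42% of all control peaks. Of the covered bases, 0.103% in satellites, 1.44% in the others and 1.93% in domains lay under an EPZ5676 peak. The others therefore had a share near that of all control peaks by midpoint, and satellites one below it. The gap between satellites and the rest was also seen at widths of 500 to 999 bp, with 0.273% of satellites and 2.99% of others overlapped, and of 1000 to 4999 bp, with 2.44% and 5.50%. Peaks of 1 list are not independent, and no test of these differences was made.

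The domains beside satellites did not lack EPZ5676 peaks. The nearest domain carried an EPZ5676 peak for 693 of the 2735 satellites (25.3%). Of domains with a satellite 25.1% overlapped an EPZ5676 peak, against 23.4% of domains without one. An EPZ5676 peak lay within 5 kb of 184 satellites (6.73%) and of 792 others (8.80%), against 8.71% of control peaks of 500 to 999 bp, 9.54% of those of 1000 to 4999 bp and 11.8% of all control peaks.

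Among the others, the overlap was higher with distance from a domain. It was 0.297% at 5 to 20 kb (8 of 2697), 1.07% at 20 to 100 kb (38 of 3565) and 5.36% beyond 100 kb (147 of 2741, 4.55 to 6.27%). By strength of the control peak it was 2.00% for a −log10 q of at least 2 (1.46 to 2.66%) and 2.19% below that (1.86 to 2.57%), with intervals that overlap. By gene, EPZ5676 peaks overlapped 145 of 2824 other narrow peaks in genes whose widest control peak was 500 to 4999 bp, or 5.13% (4.35 to 6.01%). In genes with a domain they overlapped 25 of 4486, or 0.557% (0.361 to 0.822%), in narrow-only genes 10 of 457 (2.19%), and outside protein-coding genes 13 of 1236 (1.05%). The same order held at 500 to 999 bp, with 5.63% in genes with a widest peak of 500 to 4999 bp and 1.36% in genes with a domain, and the gap was smaller at 1000 to 4999 bp, with 6.95% and 4.22%. Counted by gene, 88 of 1405 genes of the middle kind had an overlapped narrow peak (6.26%), against 21 of 2542 genes with a domain (0.826%), although an EPZ5676 peak anywhere in the gene was found in 17.4% and 38.5%.

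**Figure D5:**
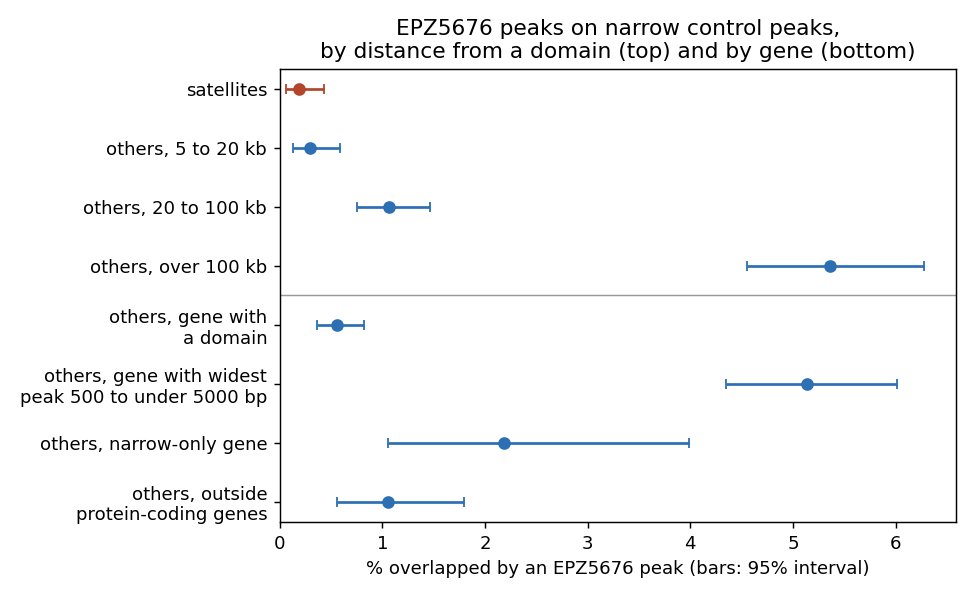
The horizontal axis is the percentage of narrow control peaks overlapped by an EPZ5676 peak by at least 1 bp, with exact 95% intervals, for satellites (red) and for others (blue) by distance from a domain (upper rows) and by the gene that holds them (lower rows). The shares run from 0.183% in satellites to 5.36% in others over 100 kb from a domain, and stand at 0.557% in genes with a domain and 5.13% in genes whose widest peak was 500 to 4999 bp.

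A few genes held many of the overlapped narrow peaks. The 198 peaks lay in 119 genes or outside protein-coding genes, and the 8 genes with at least 4 overlapped narrow peaks, a limit chosen after the values were seen, held 44 of them (22.2%). Without these 8 genes the share in others was 149 of 8862 or 1.68%, with 3.97% in genes whose widest peak was 500 to 4999 bp and 0.424% in genes with a domain. The 17 genes with at least 3, of which 9 had 3, held 71 (35.9%), and without them these shares were 1.39%, 3.04% and 0.424%. Setbp1, the gene of a SET-binding protein, had 10 of its 23 narrow peaks overlapped. Its EPZ5676 peaks numbered 42 and covered 25709 bp, against 25665 bp under its 40 control peaks. Egfr, a growth factor receptor gene, had 6 of 12 overlapped and 16033 bp under EPZ5676 peaks, against 20402 bp in the control. Mecom, a zinc finger factor gene, had 5 of 11 overlapped and 12400 bp, against 5600 bp in the control. In Bdnf, a neurotrophin gene, 3 of 4 were overlapped, all between 76.8 and 83.4% of the gene span. Arid5b had 5 of 15, Lhfp 4 of 18, Pcdh7 4 of 15, Ccbe1 4 of 19 and Pdgfc 3 of 9, the last and Bdnf being among the 9 genes with 3. In these genes and in Efna5 EPZ5676 peaks covered less than control peaks. The lengths were 6911 against 9527 bp in Pcdh7, 4436 against 9263 in Bdnf, 21379 against 51732 in Lhfp and 6674 against 31543 in Ccbe1. The lowest −log10 p was 4.03 in the EPZ5676 list and 2.36 in the control list. Covered lengths are therefore a description and do not measure a change of the mark.

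Where a narrow control peak of the others was overlapped, the EPZ5676 peak was the wider one in 138 of 193 cases. The median width was 491 bp for EPZ5676 and 359 bp for the control. The rule held these control peaks under 500 bp, whereas EPZ5676 peaks had no limit and reached 8867 bp in the whole list. The widths are therefore not compared and do not show that peaks broadened. The shared length had a median of 209 bp, and 50 of the narrow peaks lay wholly inside the EPZ5676 peak. The median fold was 2.80 in the EPZ5676 peaks and 2.16 in the narrow control peaks, each against its own background, so these folds are not compared. The narrow peaks that were not overlapped had a median width of 330 bp and fold of 2.14. The overlapped ones lay a median of 25.8% along the gene (126 peaks).

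Of the 5 satellites with an EPZ5676 peak, 1 stood out by its control signal. It lay in D5Ertd579e and Gm32584 (chr5:36630453-36630828, fold 3.07, −log10 q 20.4) and had an EPZ5676 peak of 298 bp and fold 3.46 wholly within it. The other 4, in Myl4, Svil and Map1b and outside protein-coding genes on chromosome 15, had control folds of 2.05 to 2.197. Among the other narrow peaks, those under the highest EPZ5676 folds lay in Adam12, a metalloprotease gene (EPZ5676 fold 3.49, control fold 2.08), Arid5b (3.24 and 2.19), Runx1t1, a corepressor gene (3.20 and 2.03), Efna5 (3.18 and 2.18) and Lhfp (3.16 and 2.18).

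The narrow control peaks of highest fold stood well above the median of 2.15. The satellite of highest fold lay in Afdn, the gene of the junction protein afadin (chr17:13773480-13773931, fold 6.62, −log10 q 27.3), 521 bp from its domain. Satellites in Map4k4, a kinase gene (3.81), and Abi1, a regulator of the actin skeleton (3.77), followed within genes, and 2 more lay outside protein-coding genes on chromosome 18 (3.98) and chromosome 15 (3.75). Of the others, the highest lay in Tmem181a (fold 5.93), Gm31714 (5.38), Zfp955b (4.83), Zfp996 (4.59), Zfp955a (4.45) and Rnaset2b, a ribonuclease gene (4.32). Meikin, the gene of a kinetochore protein of meiosis, had a peak of fold 4.08, and 2 peaks lay outside protein-coding genes on chromosome 12 (4.17 and 4.02). None of these peaks overlapped an EPZ5676 peak, which is near the 1.69% over all narrow peaks, and by −log10 q the overlapped satellite in D5Ertd579e (20.4) stood above most of them. Several of these genes have near-identical copies, and how reads that map to more than 1 place were treated is not stated in the sources used here. Rnaset2b and Meikin had no wider peak, and the other narrow-only genes of highest fold were Gm40595 (3.99, with 15 bp of the peak in the gene), Zfp987 (3.15) and Zfp534 (2.94).

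Genes of the stem cell, of its signalling and of the DOT1L complexes were read for narrow peaks in full. Against 21.1% of all genes with a narrow peak, 13 of 29 genes of GDNF and FGF signalling had one, with 48 narrow peaks in all, 13 of them satellites. Gfra1 had 10 among 37 control peaks, beside a widest peak of 24365 bp, and none had an EPZ5676 peak. Fgfr2, a receptor of fibroblast growth factors, had 8 among 18, of folds 2.04 to 2.33 and far from any domain, at least 249883 bp away, and 2 of them were overlapped by EPZ5676 peaks. Sos1 had 5 and Lyn had 4. Gfra1 and Sos1 overlap another annotated gene, so a peak may lie in both.

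Of 15 genes of the DOT1L and super elongation complexes, 12 had a narrow peak, against 21.1% of all genes, 42 in all and 14 of them satellites. EPZ5676 peaks overlapped 0 of the 42, a count near the 1.69% over all narrow peaks. Anywhere in the gene span, an EPZ5676 peak was found in 8 of these 15 genes, against 13.1% of all genes. Mllt3, a reader subunit that joins DOT1L to elongation factors, had 19 among 59 control peaks. Aff3 had 7 among 54 and Aff1 had 3 among 28, both scaffold genes of that complex, and Dot1l had 2 among 5. These genes are long, with a median of 53184 bp against 17491 bp over all genes, and 14 of the 15 had a domain.

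Of 25 genes of undifferentiated spermatogonia, 10 had a narrow peak, 24 in all with 7 satellites, against 21.1% of all genes. Besides Gfra1 these were Taf4b with 5, Foxo1 with 2, and Bcl6b, Cdh1, Etv5, Id4, Itgb1, Thy1 and Zbtb16 with 1 each. The widest control peak in Zbtb16 spanned 127978 bp. Thy1, a surface protein used to enrich the stem cells and also made by fibroblasts, had a narrow peak of 330 bp and fold 2.08 and no other. EPZ5676 peaks overlapped 0 of the 24, again near 1.69%.

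Of 13 genes of spermatogonial differentiation 4 had a narrow peak, against 21.1% of all genes. Kitl, the ligand of the Kit receptor, had 3, and the one of 484 bp (fold 2.40) lay wholly inside an EPZ5676 peak of 523 bp (fold 2.83). Of 17 genes of germ cell identity and the piRNA pathway 7 had one, among them Ddx4, a germ cell RNA helicase, and Tdrd9 with 2 each. Nanos1 and Pld6, the gene of a mitochondrial protein of piRNA processing, each had 1 narrow peak and nothing wider. Of 20 meiosis genes 8 had one, with 3 in Sycp1, a protein of the synaptonemal complex, and 2 in Hormad2, and of 13 spermiogenesis genes 1 did, Crem. The lists of germ cell identity, meiosis and spermiogenesis held 9, 11 and 2 narrow peaks, and 0 of them were overlapped by an EPZ5676 peak, near the 1.69% over all narrow peaks.

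Some groups of short genes had none. Over all genes 54.2% carried a control peak and 21.1% a narrow one, at a median length of 17491 bp. All 53 genes of cytosolic ribosomal proteins carried a control peak and 0 carried a narrow one, at a median length of 3352 bp. Other genes of like length were not set beside these groups. The HoxA, HoxB and HoxD clusters had no narrow peak, with 3 of 11, 10 of 10 and 0 of 9 genes carrying a control peak. In HoxC the genes Hoxc9 and Hoxc10 had 1 each, so 2 of 9 genes (22.2%), near the share over all genes. Of 13 pluripotency genes Klf2 had a narrow peak (fold 2.07) and no wider one.

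Among 18 imprinted genes, 4 had a narrow peak (22.2%), a share near the 21.1% of all genes. Grb10, an adaptor protein gene, had 4 narrow peaks among 5 control peaks, of folds 2.05 to 2.19, and 1 of them was overlapped by an EPZ5676 peak. Sgce, a sarcoglycan gene, had a single control peak of 407 bp and fold 2.07, overlapped by an EPZ5676 peak. Plagl1, a zinc finger gene, had 2 narrow peaks and nothing wider, and Igf2r had 2 and a widest peak of 30399 bp. Of the markers of other cells, 7 of 15 fibroblast genes had a narrow peak (46.7%), against 21.1% of all genes and 40% of those of undifferentiated spermatogonia. There were 11 such peaks in all, with 4 in Prrx1, 2 in Fbn1 and 1 each in Fn1, Pdgfrb, Thy1, Twist1 and Twist2. EPZ5676 peaks overlapped 0 of these 11, near 1.69%. They lay somewhere in the span of 5 of the 15 genes, against 13.1% of all genes. The same count was 8 of 15 for the DOT1L and super elongation complexes and 12 of 29 for GDNF and FGF signalling. For undifferentiated spermatogonia it was 4 of 25 and for spermatogonial differentiation 3 of 13. It was 0 of 17 for germ cell identity and the piRNA pathway, 0 of 20 for meiosis and 1 of 13 for spermiogenesis. Testis somatic genes gave 1 of 15 and unrelated tissues 0 of 14. The median gene length was 38169 bp in the fibroblast list, 38897 bp in that of germ cell identity and 31837.5 bp in that of meiosis. The cause of these differences was not tested. Of 15 testis somatic genes Amh, the hormone gene of Sertoli cells, and Wt1 had 1 narrow peak each, and of 14 genes of unrelated tissues none did. Longer genes offer more room for a narrow peak, and no test of a list was made.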

How the data were processed

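H3K79me2 chromatin immunoprecipitation and input libraries were made from 8 samples in 4 groups of 2. The mm10 build and the tools Trimmomatic, deepTools and bcl2fastq 2.20.0.422 are named in the submitters' processing notes. The aligner, the peak caller and any pooling of replicates are not stated in the sources used here. The 2 deposited lists have 9 columns and no header. The authors' score, the fold enrichment ratio over background, and the −log10 p-value and −log10 q-value of each peak were used as deposited, to describe and filter peaks within a list.

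Width was end minus start, and overlap meant at least 1 bp. Genes and promoter windows came from the RefSeq tables of GRCm38.p6, the assembly that mm10 names. Strands and starts were taken from the promoter windows, which covered 16457 of 20665 autosomal protein-coding genes and 18 of 19 autosomes, all but chromosome 18. Shares have exact Clopper-Pearson 95% intervals, which cover counting error only and treat neighbouring peaks as independent. Python 3.11.15, pandas 2.3.3 and scipy 1.17.1 were used, and the overlap and share code was tested on simulated data. Depth per sample is unknown here.

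The members, the gene lists and the rules were chosen with earlier results of these data known. Named were the 5 satellites and 10 other narrow peaks of highest fold, the 5 genes with the most narrow peaks, the 5 narrow-only genes with the most and the 5 with the highest, the 5 narrow peaks of each class under the EPZ5676 peak of highest fold, and list members that were narrow-only or had an overlapped narrow peak. List members were also named by their counts of narrow peaks, and genes with the most overlapped narrow peaks were added after their values were seen. The printed promoter windows were chosen among the windows mostly or wholly inside a narrow peak of a protein-coding gene. A few genes that these rules name are not reported here. The alternatives were other widths, distances, thresholds and overlaps.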

Additional observations from a re-analysis of the deposited data

How the results depend on the processing

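EPZ5676 overlap was lower in satellites than in other narrow peaks in 9 of 9 settings, the share near a start was higher in satellites in 9 of 9, and the share in genes was lower in 8 of 9. With a −log10 q of at least 2, 3112 narrow peaks and 173 narrow-only genes were left, 27.5% were satellites, the shares in genes were 83.5% in satellites and 84.8% in others, and those near a start 11.2% and 5.39%. With control peaks kept only above the lowest −log10 p of the EPZ5676 list, chosen after seeing the data, 1188 peaks and 125 narrow-only genes were left, 27.4% were satellites, the shares in genes were 83.1% and 82.0%, the 1 setting that turned their order, and those near a start 13.1% and 5.93%. A satellite distance of 2000 bp gave 13.3% satellites, shares in genes of 83.0% and 85.5%, and 12.5% of satellites near a start, and 10000 bp gave 33.9% satellites, 6.44% of them near a start and 2.47% of others overlapped. Domains of at least 10000 bp gave 12.3% satellites, 77.2% of them in genes and 9.55% near a start. Overlap of at least 50% of the narrow peak gave 1.43% of others overlapped, and a start within 500 bp gave 4.82% of satellites and 1.97% of others. Width limits of 400 and 600 bp gave 8248 and 14697 narrow peaks and 273 and 557 narrow-only genes, and genes that overlap no other gave 321 narrow-only genes and midpoints 440. The other shares stayed inside the interval of the reported share. The cause of these shifts was not tested, beyond the smaller number of peaks that stricter limits leave. No paired analysis was possible because each condition has 1 peak list and no test was made between replicates. Read depth, unknown here, limits which narrow peaks could be called.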

Other observations

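The highest narrow peaks included many in zinc finger genes and in genes with a lettered sister symbol, a pattern looked at after the values were seen. Of the 50 narrow peaks of highest fold that lay in a protein-coding gene, all at a fold of at least 2.96, 13 lay in a gene with a Zfp symbol (26.0%), against 254 of the 9946 other narrow peaks in genes (2.55%). A gene whose symbol has a sister that differs in its last letter, such as Zfp955a and Zfp955b, held 10 of the 50 (20%), against 7.95% of the other narrow peaks in genes and 8.10% of control peaks of 500 bp or wider in genes. Of 391 autosomal Zfp genes, 19 had narrow peaks only (4.86%), against 1.98% of all genes. The treatment of reads that map to several places is not stated in the sources used here, and its part in this pattern was not tested.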
